A study of Rattus norvegicus with 6 samples.

Results

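The genes described here encode proteins of the cytosolic ribosome in rat myocardium. They were chosen by name (Rpl or Rps followed by a number, the stalk proteins Rplp0, Rplp1 and Rplp2, and Rpsa, with kinases, pseudogenes and like-named paralogs left out) and by a mean of at least 0.5 FPKM, that is fragments per kilobase of gene and per 1000000 fragments, over all samples. Of 30452 rows of the table, 95 carried such a name and 78 of these passed the minimum. They hold 67 gene symbols, 29 of the small and 38 of the large subunit, among 10942 genes that reached 0.5 FPKM. Rpl35a was the only matching symbol left outside, with rows at 0.27 and 0.15 FPKM, and Rpl37 at 4.91 FPKM was the member nearest to the minimum on its inner side. The 67 genes are not a complete set: no row carried the name Rpl10 or Rpl13a, and other proteins of the cytosolic ribosome are also outside it.

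RNA was sequenced from myocardial tissue of 6 male wild-type rats, 3 after a sham operation and 3 after myocardial ischemia/reperfusion injury (MI/RI). For MI/RI, the artery that feeds the front wall of the left ventricle (left anterior descending) was tied off for 30 min and then reopened for 6 h before harvest, and the sham labels carry the same times. The rats' strain and age are not given in the labels. Total RNA went into a strand-specific total RNA library, and each library is labelled as a sample of its own, 1 per rat as far as the labels say. Steps in the FPKM values gave about 36800000 to 49800000 fragments per library behind the scaling, and 66 of the 67 genes had at least 1000 fragments in every sample. Rpl37 was lowest, with 52 fragments in 1 sample.

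A ribosomal protein gene supplies 1 protein of the small or the large ribosomal subunit, and the proteins are needed in near equal numbers. Their mRNAs are among the most abundant of most cells and start with an uninterrupted run of C and T, the 5′ terminal oligopyrimidine (5′ TOP) tract, through which the mTORC1 kinase and Larp1 set how well they are translated. In heart muscle, growth and injury are known to change how many ribosomes are made.

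Start sites could be set beside sequence for 53 of the 67 genes, with 54 entries in the RefSeq promoter table (build GRCr8). Of the genes called higher, Rpl8 and Rpl27 had no entry. A run of at least 8 C or T within 20 bases on either side of the annotated start was present in 39 of the 54 entries (72.2%), against 15.5% of all 33469 entries of the table and 15.1% of the entries of other genes tested. The windows below are 30 bases long, from 15 before the start to 15 from it onward, on the strand of the gene, and their longest C/T run is in capitals. They are shown for 4 genes that were called higher after MI/RI, then for 1 gene with a long run and little difference, then for the 4 genes with the lowest differences.

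Rps2 (chr10:14251833-14251862, plus strand): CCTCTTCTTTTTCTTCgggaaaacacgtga
Rpl7a (chr3:30637121-30637150, plus strand): CTCTCCTCCagccgagcaagatggtgagtg
Rps13 (chr1:180009646-180009675, minus strand): gccgtttcctacctcgTTCTCTCTTTgctt
Rplp0 (chr12:46718376-46718405, minus strand): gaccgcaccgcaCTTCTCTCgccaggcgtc
Rpl34 (chr2:221962269-221962298, minus strand): CCCCTTCCTTTTCCTCTTCCggggacggtg
Rps12 (chr1:23500060-23500089, plus strand): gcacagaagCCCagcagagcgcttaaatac
Rpl31 (chr9:49143096-49143125, plus strand): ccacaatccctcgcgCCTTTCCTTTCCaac
Rpl3 (chr7:113507976-113508005, minus strand): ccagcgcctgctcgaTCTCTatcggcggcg
Rpl38 (chr10:100200420-100200449, plus strand): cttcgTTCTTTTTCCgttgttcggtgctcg

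Within 20 bases on either side of the start, long runs stood at genes high and low in the order. They were 20 bases at Rps2, whose log2 fold change was 1.0, 20 bases at Rpl34 (0.07) and 12 bases at Rpl31 (-0.10). The printed 30 bases cut the run of Rps2 to 16 bases and that of Rpl7a from 14 to 9 bases. All 6 entries of the genes called higher held a run of at least 8, and so did 33 of the 48 entries of genes that were not called (68.8%). The letters CTTTCC, searched on both strands of the same windows, were found in 16 of the 54 entries (29.6%), each time on the strand of the gene, and in 3.48% of all entries. A match or its lack is a description of the letters in these windows.

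On the deposited scale, 8 of the 67 genes were called higher and 0 lower after MI/RI than after sham. With the mitochondrial mRNAs left out of the scaling, 0 were called higher and 8 lower (7.25% and 26.1% of all genes tested). The 8 called higher on the deposited scale were Rps2, Rpl8, Rpl7a, Rpsa, Rps13, Rpl27, Rplp0 and Rpl13, with log2 fold changes of 0.66 to 1.0. The test was limma on log2(FPKM + 0.1) over all 10942 genes with Benjamini-Hochberg adjustment and a threshold of 0.05, and the log2 fold change of a low gene is understated on this scale. The 8 genes are 11.9% of the members, while 25.5% of all genes tested were called higher and 7.36% were called lower. Without adjustment, 14 members had a limma p under 0.05, all of them higher after MI/RI. In 27 members every MI/RI rat was above every sham rat, and in 0 members every MI/RI rat was below (37.2% and 13% of all genes tested).

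Most of the genes leaned upward on the deposited scale, as did most genes tested. The log2 fold change was above 0 in 59 of the 67 genes, with a median of 0.32, and in 65.3% of all genes tested, with a median of 0.29. From the lower to the upper quartile it ran from 0.13 to 0.53 among the members and from -0.22 to 0.84 among all genes. The small subunit had 3 of 29 genes called higher and a median of 0.36, and the large subunit 5 of 38 and a median of 0.30.

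**Figure D1:**
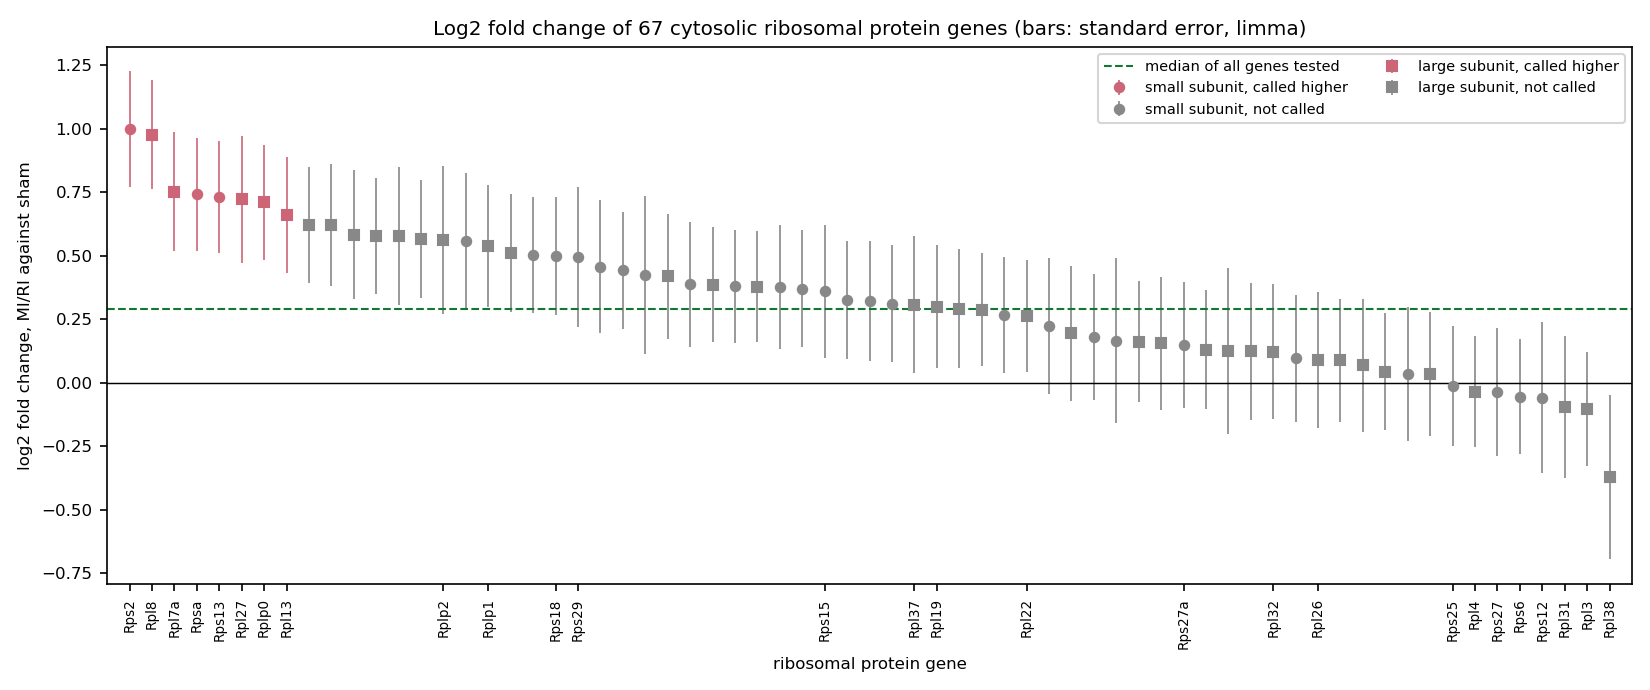
Log2 fold change of MI/RI against sham (vertical axis) for each of the 67 ribosomal protein genes (horizontal axis, in order, with the members chosen by the naming rule labelled), with circles for the small and squares for the large subunit, bars for the standard error from limma (n = 3 per group) and a dashed line at the median of all genes tested, 0.29. The 8 genes called higher are the 8 at the left, from 1.0 (Rps2) to 0.66 (Rpl13), and the lowest is Rpl38 at -0.37. These are values on the deposited scale; with the mitochondrial mRNAs left out of the scaling, 65 of the 67 genes are below 0.

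The directions depended on the scaling, and most turned when the mitochondrial mRNAs were left out. The 13 mRNAs encoded by mitochondrial DNA took 83.8% ± 3.26 (SD, n = 3) of the summed FPKM in the sham rats and 68.1% ± 5.43 (SD, n = 3) in the MI/RI rats. With the values rescaled to the sum outside those mRNAs, 0 ribosomal protein genes were called higher and 8 lower by limma (0 and 22 at an unadjusted p under 0.05). Of all genes tested, 7.25% were called higher and 26.1% lower on that scale. There 65 of the members' 67 log2 fold changes were below 0, and their median was -0.46, the same as the -0.46 of all genes tested. The genes called lower on that scale were Rpl24, Rpl3, Rpl31, Rpl38, Rpl4, Rps25, Rps27 and Rps6. After quantile normalization, which gives every library the same distribution of values, 0 members were called higher and 23 lower by limma (0 and 46 at an unadjusted p under 0.05), with a median of -0.68 against -0.02 for all genes. Of all genes tested, 13.2% were called higher and 14.2% lower after that step. Relative to the median of all genes, the members' median was 0.03 higher as deposited, 0.00081 higher without the mitochondrial mRNAs and 0.65 lower (-0.65) after quantile normalization. Leaving out the mitochondrial mRNAs multiplies all values of a library by the same factor. The step from 0.03 to 0.00081 therefore comes from the 0.1 added to each FPKM before the log2. The comparison with genes at large also moved with the filter on low genes: with a minimum of 5 FPKM the members' median was 0.34 below that of all genes (-0.34), of which 50% were called higher, and with no filter it was 0.25 above and 11.4% of all genes were called higher.

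**Figure D2:**
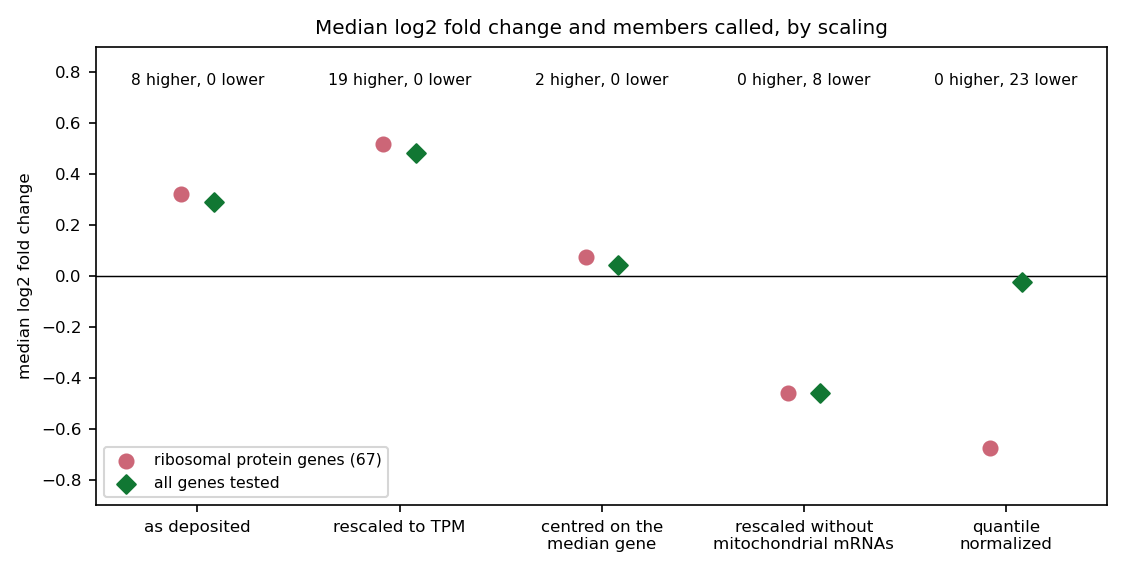
Median log2 fold change of MI/RI against sham (vertical axis) of the 67 ribosomal protein genes (circles) and of all genes tested (diamonds) under 5 scalings of the FPKM values (horizontal axis), with the number of members called higher and lower above each. The circle and the diamond lie close together in all but the quantile-normalized values, where the medians are -0.68 and -0.02.

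The summed level of the members turned in the same way. Together the 67 genes summed to 18776, 15989 and 16099 FPKM in sham rats 1 to 3 and to 17777, 22897 and 23352 FPKM in MI/RI rats 1 to 3. MI/RI rat 1 lay below sham rat 1, so the groups overlapped, and the ratio of the means was 1.26. As a percent of all FPKM, the sums were 2.08, 1.79 and 1.73 in the sham rats and 2.43, 2.77 and 2.83 in the MI/RI rats, with no overlap. As a percent of the FPKM outside the mitochondrial mRNAs, they were 10.4, 12.0 and 12.5 in the sham rats and 6.37, 9.55 and 9.92 in the MI/RI rats, again with no overlap but in the opposite order. With 3 rats against 3, the smallest p of an exact permutation test is 0.1, and no test was made on these sums.

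**Figure D3:**
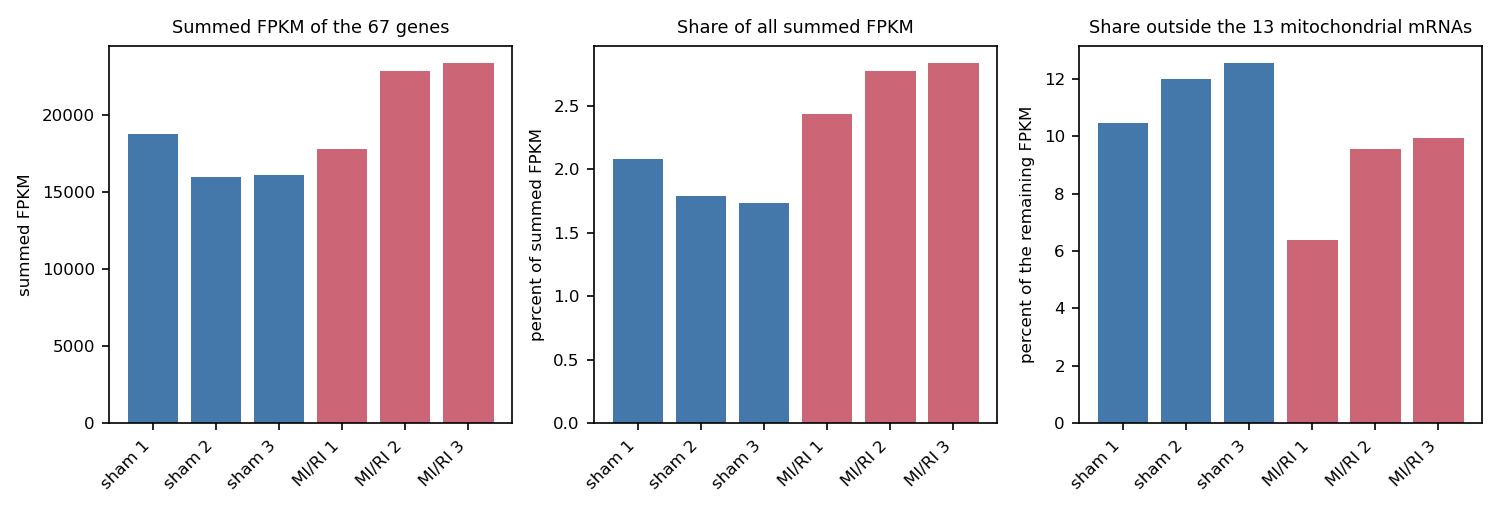
Summed FPKM of the 67 ribosomal protein genes in each of the 6 rats (left), as a percent of all summed FPKM (middle) and as a percent of the FPKM outside the 13 mitochondrial mRNAs (right), with 1 bar per rat. The MI/RI bars (red) are the higher ones in the middle, at 2.43 to 2.83% against 1.73 to 2.08%, and the lower ones at the right, at 6.37 to 9.92% against 10.4 to 12.5%.

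Among the small subunit proteins, Rps2, which sits near the mRNA entry of the small subunit, differed most. Its level was 337.5, 301.5 and 294.6 FPKM in the sham rats and 643.8, 606.4 and 614.3 FPKM in the MI/RI rats. The lowest MI/RI rat was well above the highest sham rat, and MI/RI rat 1 was the highest of all. The log2 fold change was 1.0 (SE 0.23, limma adjusted p = 0.0103). It was called in 5 of the 6 fits that left out 1 rat, and without sham rat 3 its limma adjusted p was 0.0502.

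Rpsa, also known as the laminin receptor, a small subunit protein, stood at 188.4, 167.0 and 170.5 FPKM in the sham rats and at 281.5, 292.1 and 305.6 FPKM in the MI/RI rats. Its log2 fold change was 0.74 (SE 0.22, limma adjusted p = 0.0289), and both groups were tight. Rps13, which binds the small subunit's rRNA, was measured at 56.4, 44.7 and 49.8 FPKM in the sham rats and at 77.0, 86.6 and 86.6 FPKM in the MI/RI rats. Its log2 fold change was 0.73 (SE 0.22, limma adjusted p = 0.0299). In both genes the groups were apart by more than their own spread.

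In the large subunit, Rpl8, a protein close to the site of peptide bond formation, was measured at 29.2, 29.2 and 25.4 FPKM in the sham rats and at 49.9, 56.7 and 58.9 FPKM in the MI/RI rats. Its log2 fold change was 0.98 (SE 0.22, limma adjusted p = 0.00926). Rpl8 was called in all 6 fits that left out 1 rat, with log2 fold changes of 0.91 to 1.05. Its FPKM is per the 5755 bases that the steps of its main row give as gene length, the longest of the 67 genes, whose median length is 1049 bases, so its place low in the order of levels rests on that length. A second row of the same symbol held 6.23% of its FPKM.

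Rplp0 forms the base of the ribosomal stalk, where the translation factors bind, and Rplp1 and Rplp2 are attached to it. Rplp0 stood at 385.5, 363.5 and 339.7 FPKM in the sham rats and at 599.3, 575.2 and 606.9 FPKM in the MI/RI rats, without overlap (log2 fold change 0.71, SE 0.23, limma adjusted p = 0.0367). Rplp2, at 888.7, 549.2 and 525.2 FPKM in the sham rats and 760.5, 1025 and 1058 FPKM in the MI/RI rats, did not pass the test (0.56, SE 0.29, limma adjusted p = 0.164). Sham rat 1 was above MI/RI rat 1 in Rplp2, so the groups overlapped. Rplp1 lay at 189.3 to 243.7 FPKM in the sham rats and at 265.4 to 350.3 FPKM in the MI/RI rats, with no overlap and no call (0.54, SE 0.24, limma adjusted p = 0.112). Whether the stalk proteins differ from each other in response was not tested.

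The other large subunit genes that were called are Rpl7a, Rpl27 and Rpl13. Rpl7a stood at 344.2, 290.7 and 257.3 FPKM in the sham rats and at 504.7, 500.0 and 489.1 FPKM in the MI/RI rats (log2 fold change 0.75, SE 0.24, limma adjusted p = 0.0342). Rpl27 was measured at 445.6, 340.3 and 358.6 FPKM in the sham rats and at 526.0, 658.1 and 707.3 FPKM in the MI/RI rats (0.72, SE 0.25, limma adjusted p = 0.0498). Rpl13 was measured at 163.6, 144.6 and 137.7 FPKM in the sham rats and at 207.5, 246.7 and 251.2 FPKM in the MI/RI rats (0.66, SE 0.23, limma adjusted p = 0.0499). In all 3 genes the groups were apart, and Rpl27 and Rpl13 passed the threshold by little. With the replicate number as a block, Rpl10a and Rpl6 were called as well, which made 10 genes.

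At the other end, 8 genes had a log2 fold change below 0, and none of them passed the test. Rpl38, a small large-subunit protein known for its part in translating certain developmental mRNAs, was measured at 592.1, 574.8 and 490.3 FPKM in the sham rats and at 260.3, 528.0 and 561.1 FPKM in the MI/RI rats. Its difference, -0.37 (SE 0.32, limma adjusted p = 0.401), was not called: MI/RI rat 1 was far below the others, and the other two MI/RI rats lay within the range of the sham rats. Rpl31 (269.5, 239.7 and 245.7 FPKM against 163.2, 268.1 and 297.3 FPKM) and Rps12 (545.1, 501.9 and 492.8 FPKM against 327.5, 564.5 and 647.0 FPKM) also had MI/RI rat 1 lowest of all 6 rats, and MI/RI rat 3 was the highest. Their log2 fold changes were -0.10 (SE 0.28) and -0.06 (SE 0.30).

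Rps6, the small subunit protein that S6 kinase phosphorylates downstream of mTORC1, stood at 211.2, 191.1 and 206.9 FPKM in the sham rats and at 174.8, 213.0 and 200.6 FPKM in the MI/RI rats. Its log2 fold change was -0.05 (SE 0.23, limma adjusted p = 0.874), and the groups overlapped. The remaining genes below 0 were Rpl3, described with its paralog further on, Rps27 (-0.04), Rpl4 (-0.03) and Rps25 (-0.01).

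**Figure D4:**
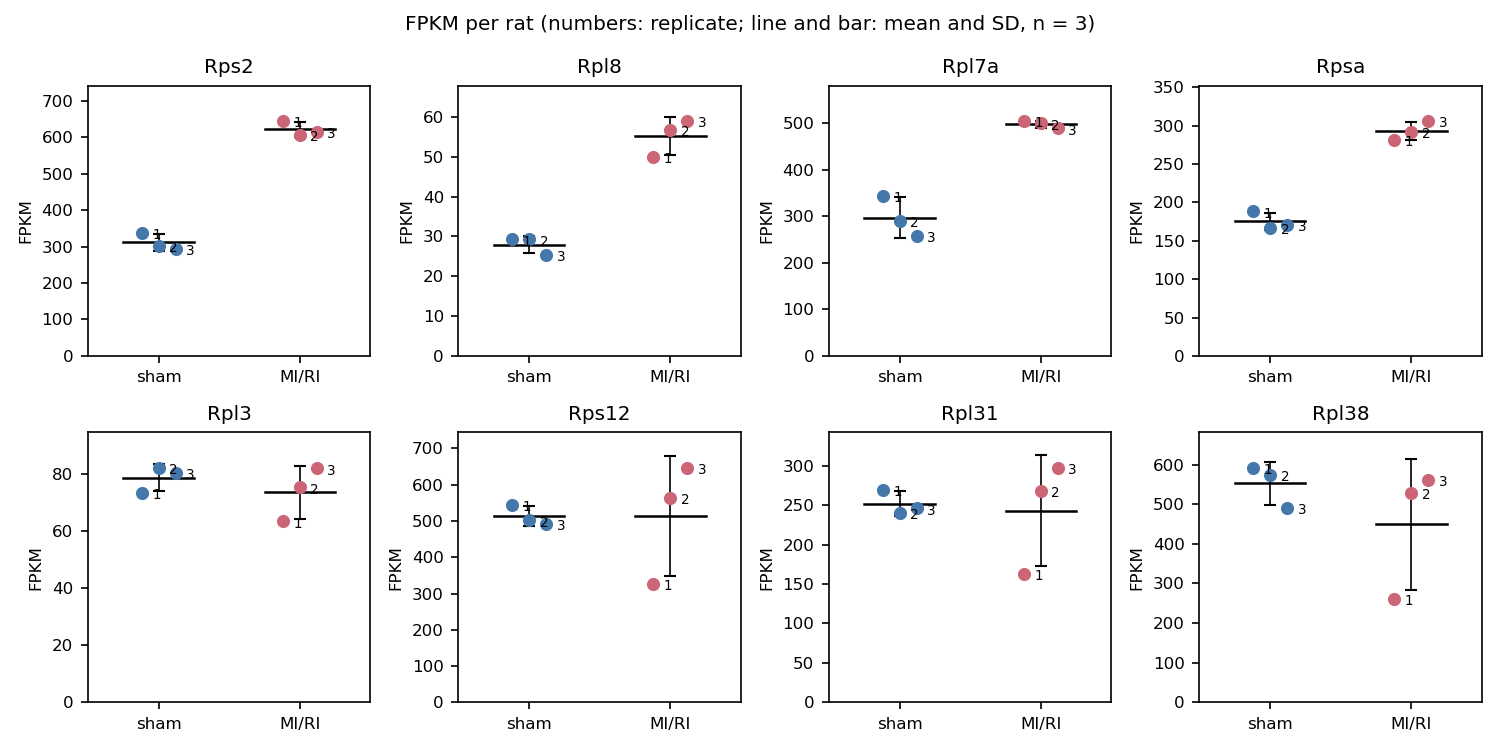
FPKM (vertical axes, from 0) of 8 ribosomal protein genes in each rat, numbered by replicate, with the mean and SD of each group (n = 3). In Rps2, Rpl8, Rpl7a and Rpsa all MI/RI rats lie above all sham rats, while in Rpl3, Rps12, Rpl31 and Rpl38 MI/RI rat 1 is the lowest of the 6.

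The members were high in every rat, which is in part how they were chosen. The median gene had a mean of 244.3 FPKM, above 98.8% of all genes tested, and 58 of the 67 genes were at 100 FPKM or more. The highest was Rps15, at 960.1, 661.6 and 722.2 FPKM in the sham rats and at 840.0, 1072 and 1079 FPKM in the MI/RI rats, with a log2 fold change of 0.36 (SE 0.26, limma adjusted p = 0.313). Rps15 overlapped between the groups because sham rat 1 exceeded MI/RI rat 1. Across the 67 genes the log2 fold change went neither with the mean FPKM (Spearman rho -0.05) nor with gene length (0.09), and these genes share their libraries. Rpl32 and Rps18, common reference genes in expression studies, had log2 fold changes of 0.12 (SE 0.27) and 0.50 (SE 0.23). Rps27a, which is made as a fusion with ubiquitin, had one of 0.15 (SE 0.25), and none of these 3 passed the test.

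The lowest members after Rpl37 were Rpl22 and Rpl8. Rpl37 stood at 5.14, 4.26 and 3.59 FPKM in the sham rats and at 3.79, 5.85 and 6.81 FPKM in the MI/RI rats (log2 fold change 0.31, SE 0.27). Rpl22 stood at 24.98, 21.1 and 21.5 FPKM in the sham rats and at 23.4, 27.9 and 30.1 FPKM in the MI/RI rats (0.26, SE 0.22). The groups overlapped in both genes, and neither passed the test.

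The rats within a group differed over nearly the whole set. MI/RI rat 1 was below the mean of the other two MI/RI rats in 62 of the 67 genes, by a median of 0.36 on the log2 scale (-0.36), from -1.09 in Rpl30 to 0.08 in Rps2. Over all genes tested that rat had a median difference of 0.23, with 32.0% of genes below 0. In the 19 members where it was lower by more than 0.5 the median gene length was 865 bases, against 1132 bases in the others. Sham rat 1 was above the other two sham rats in 53 of the 67 genes, with a median of 0.19, while the median over all genes tested was -0.13. Without MI/RI rat 1, 8 genes were called higher, 6 of them shared with the 8 named above, and the median rose to 0.45. Without sham rat 1, 16 genes were called. Of all genes tested, 18.9% were called higher without MI/RI rat 1 and 23.4% without sham rat 1. Without sham rat 2, MI/RI rat 2 or MI/RI rat 3, Rps2 and Rpl8 alone of the members were called, and without sham rat 3 only Rpl8. Those fits called 17.5%, 20.7%, 21.5% and 14.0% of all genes tested higher, in that order. Over 17 alternatives in scaling, filter, model and libraries, Rpl8 was called higher in 15 and Rps2 in 14, Rps13 and Rpsa in 10 each, and Rpl7a, Rpl27, Rplp0 and Rpl13 in 8 each.

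The contractile genes among the markers of muscle cells in the vessel wall also had sham rat 1 highest and MI/RI rat 1 lowest in their groups. The summed FPKM of 6 smooth muscle and pericyte markers (carried by Tagln and Acta2, proteins of the contractile apparatus) was 276.7, 129.0 and 85.2 in the sham rats and 140.8, 274.7 and 334.8 in the MI/RI rats. Myh11, Acta2, Tagln and Cnn1 each had that order, while Rgs5 and Pdgfrb had sham rat 1 lowest in its group and MI/RI rat 1 in the middle or highest. Of the 6 markers, 1 was called higher (Rgs5) and 1 lower (Pdgfrb), and none was at 0 throughout. Cardiomyocyte markers identified the tissue: 6 of the 7 listed were tested and 4 were called higher (Myh6, Tnnt2, Tnni3 and Actc1), and their sum was 2665 to 8270 FPKM in the sham rats and 17476 to 26846 FPKM in the MI/RI rats. The part of either in the ribosomal protein values was not tested. In whole tissue, fewer cells of a type and less RNA per cell cannot be told apart.

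Of the other marker lists, fibroblast genes had 2 of 7 called higher (Col1a1 and Tcf21; summed FPKM 420.1 to 580.9 in sham and 605.0 to 669.3 in MI/RI) and neutrophil and monocyte genes 3 higher (S100a8, S100a9 and Cd14) and 1 lower (Ccr2) of 6 (sums 52.0 to 68.5 and 78.4 to 144.2). Macrophage genes had 2 of 6 called lower (Cd163 and Mrc1), with sums of 24.1 to 26.0 and 24.1 to 28.4 FPKM. Endothelial genes (7 tested), lymphocyte genes (2) and red blood cell genes (2) had 0 calls by limma (1 higher and 1 lower at an unadjusted p under 0.05, both endothelial). The marker genes were named after their values were seen. With the mitochondrial mRNAs left out of the scaling, several of these calls changed: 0 fibroblast genes were called higher and 2 lower, 0 endothelial genes higher and 4 lower with a median of -0.99, and 0 smooth muscle and pericyte genes higher and 1 lower. Of all genes tested, 7.25% were then called higher and 26.1% lower, with a median of -0.46. On that scale the neutrophil and monocyte genes had 1 higher and 1 lower, the macrophage genes 2 lower, the lymphocyte genes 1 lower, the red blood cell genes 0 calls, and the cardiomyocyte genes still 4 higher.

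A ratio between genes of the same rat does not depend on the scaling of the library. With each member set against the median member of the same rat, 16 genes (23.9%) had all MI/RI rats above all sham rats and 14 (20.9%) had all MI/RI rats below. The same measure, again against the median ribosomal protein gene, gave 19.5% and 17.9% of all genes tested, so these shares were near those of genes at large.

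Rpl3, the large subunit protein next to the site of peptide bond formation, has a paralog found in striated muscle, Rpl3l, that takes its place in the ribosome. Rpl3l stood at 39.9, 15.8 and 15.4 FPKM in the sham rats and at 157.6, 106.4 and 101.2 FPKM in the MI/RI rats, and all MI/RI rats were above all sham rats. Its log2 fold change was 2.48 (SE 0.38, limma adjusted p = 0.00332) as deposited and 1.69 (limma adjusted p = 0.00113) with the mitochondrial mRNAs left out of the scaling. Rpl3 itself was measured at 73.3, 82.1 and 80.4 FPKM in the sham rats and at 63.4, 75.2 and 81.9 FPKM in the MI/RI rats, with overlap (-0.10, SE 0.22).

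The ratio of Rpl3 to Rpl3l was 1.84, 5.21 and 5.21 in the sham rats and 0.402, 0.707 and 0.809 in the MI/RI rats. Rpl3 was the more abundant transcript per length in every sham rat and Rpl3l in every MI/RI rat. The log2 ratio differed by -2.58 (2-sided exact permutation test, p = 0.1, the smallest that 3 rats against 3 allow, adjusted p = 0.15 over 3 pairs). MI/RI rat 1 had the highest Rpl3l and the lowest Rpl3, and sham rat 1 had the highest Rpl3l of the sham rats. The summed cardiomyocyte markers were likewise highest in those 2 rats of their groups, and their part in the Rpl3l values was not tested.

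**Figure D5:**
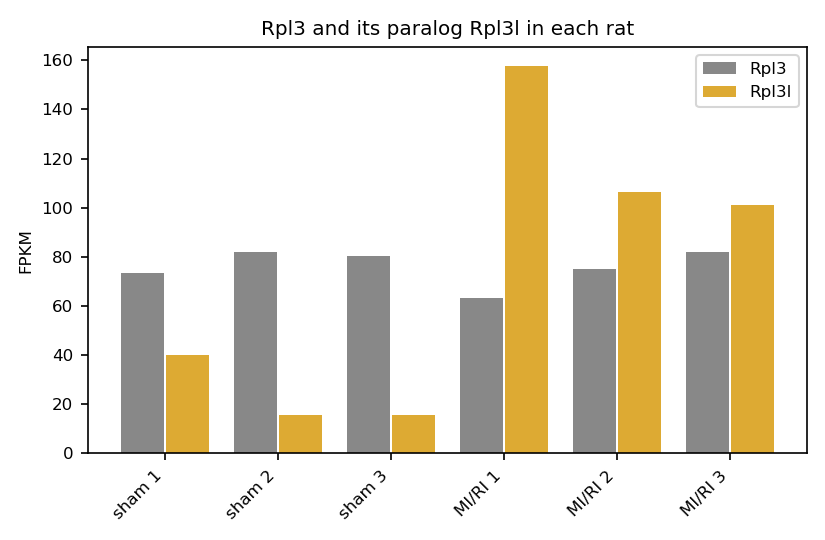
FPKM (vertical axis) of Rpl3 (grey) and of its striated muscle paralog Rpl3l (yellow) in each of the 6 rats. Rpl3 is the taller bar in the 3 sham rats and Rpl3l in the 3 MI/RI rats, where Rpl3l reaches 101.2 to 157.6 FPKM.

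In both of the other pairs compared, the paralog was the lower transcript per length. The ratio of Rpl22 to Rpl22l1 was 2.24, 2.42 and 2.13 in the sham rats and 2.86, 2.54 and 4.87 in the MI/RI rats, without overlap (log2 difference 0.53, exact permutation p = 0.1, adjusted p = 0.15). That of Rps27 to Rps27l was 46.9, 36.3 and 48.7 in the sham rats and 19.5, 37.3 and 28.7 in the MI/RI rats, and there MI/RI rat 2 lay within the sham range (-0.66, exact permutation p = 0.2, adjusted p = 0.2). Rpl10l, a paralog of Rpl10 known from testis, was called higher at a low level (1.33, 0.599 and 1.45 FPKM against 2.93, 3.78 and 3.68 FPKM, log2 fold change 1.62, limma adjusted p = 0.00653), a call that was lost with the mitochondrial mRNAs left out of the scaling (0.88, limma adjusted p = 0.0703). Rps27l (0.62, limma adjusted p = 0.0556), Rpl7l1 (0.62, limma adjusted p = 0.0567) and Rpl22l1 (-0.27, limma adjusted p = 0.443) were not called, though with the replicate block Rpl7l1 was (limma adjusted p = 0.046). Close copies of these genes share reads, and how such reads were counted is not given in the sources used here.

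Genes that work with the ribosomal proteins were looked at as lists. Of 72 tested factors that build ribosomes in the nucleolus, 34 were called higher (47.2%) and 0 lower by limma (39 and 0 at an unadjusted p under 0.05), with a median log2 fold change of 0.58. Rrp12, a factor in export of the subunits, rose from 0.637, 0.818 and 0.453 FPKM in the sham rats to 3.08, 2.57 and 1.96 FPKM in the MI/RI rats (1.85, SE 0.29, limma adjusted p = 0.00349). Tsr1, which acts in maturation of the small subunit, also rose (1.57, SE 0.36, limma adjusted p = 0.0112), from under 0.4 FPKM in each sham rat. The lowest were Taf1d, of the factor that starts rRNA transcription (-0.52, limma adjusted p = 0.396), and Wdr75 (-0.40, limma adjusted p = 0.226), neither of them called.

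Of 13 tested mRNAs of other proteins that also carry a 5′ TOP tract, 2 (15.4%) were called higher and 0 lower by limma (5 and 0 at an unadjusted p under 0.05). Their median was 0.34, near the 0.32 of the ribosomal proteins and the 0.29 of all genes tested. The 2 were Hnrnpa1, an RNA-binding protein (0.88, SE 0.26, limma adjusted p = 0.0264), and Eef1g, a subunit of elongation factor 1 (0.78, SE 0.22, limma adjusted p = 0.0245). Eif4a2 (-0.05) and Vim (-0.13) were the lowest of those tested. Eef1a1, also on this list, had a mean of 0.0153 FPKM and was left out of the limma test. Why its value was so low was not tested. The handling of reads shared by several genes is not given in the sources used here. The gene fused to ribosomal protein S30, Fau, had a log2 fold change of 0.19 (SE 0.25, limma adjusted p = 0.571), and Rack1, a scaffold protein on the small subunit, had one of 0.59 (SE 0.22, limma adjusted p = 0.0624, with the replicate block 0.043).

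In the mTORC1 pathway and among the proteins that bind these mRNAs, 10 of 28 tested genes were called higher and 1 lower, with a median of 0.53. Rragd (1.78, SE 0.40, limma adjusted p = 0.0102) and Lamtor1 (1.66, SE 0.35, limma adjusted p = 0.008), which hold mTORC1 at the lysosome, rose most. Larp1, which binds the 5′ TOP tract, stood at 1.04, 1.21 and 0.762 FPKM in the sham rats and at 3.84, 2.32 and 1.98 FPKM in the MI/RI rats (1.31, SE 0.30, limma adjusted p = 0.0105). Larp1 was named after its values were seen, and Eif4ebp1 of the same list differed more (1.40, SE 0.24, limma adjusted p = 0.00404). Castor1, an arginine sensor that restrains mTORC1, fell from 14.3, 19.5 and 13.2 FPKM to 4.14, 6.64 and 7.19 FPKM (-1.39, SE 0.28, limma adjusted p = 0.00656), and Ddit4, another inhibitor, had a difference of -0.60 that was not called (limma adjusted p = 0.289).

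Factors that act on stalled ribosomes were called higher in 7 of 14 tested genes and lower in 1, with a median of 0.72. Edf1, which binds collided ribosomes, rose by 1.40 (SE 0.29, limma adjusted p = 0.00731) on the log2 scale, and Rnf10, a ubiquitin ligase for proteins of the small subunit, by 1.17 (SE 0.29, limma adjusted p = 0.0137). Gtpbp2, a factor of ribosome rescue, was the gene called lower (-0.94, SE 0.28, limma adjusted p = 0.0286), and Ltn1, the ligase that marks the unfinished chain, was not called (-0.80, SE 0.32, limma adjusted p = 0.0829). These lists were chosen with earlier results of the same samples known, and their shares are read beside the 25.5% and 7.36% of all genes.

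With the mitochondrial mRNAs left out of the scaling, fewer genes of each of these lists were called higher. The ribosome builders then had 1 called higher and 5 lower with a median of -0.15, the other 5′ TOP mRNAs 0 and 2 with a median of -0.44, the mTORC1 list 2 and 4 with a median of -0.23, and the stalled ribosome list 0 and 2 with a median of -0.03, beside -0.46 for all genes. On that scale 7.25% of all genes tested were called higher and 26.1% lower. Castor1 (-2.16, limma adjusted p = 0.000575) and Gtpbp2 (-1.70, limma adjusted p = 0.00286) were still called lower. Among the genes higher on the deposited scale, Rrp12 (1.13, limma adjusted p = 0.0239), Rragd (1.05, limma adjusted p = 0.0352) and Lamtor1 (0.88, limma adjusted p = 0.0409) were still called higher. Tsr1, Larp1, Eif4ebp1, Edf1, Rnf10, Hnrnpa1 and Eef1g were not.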

How the data were processed

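The authors deposited 1 table of FPKM for 6 libraries. The submitters' processing notes name STAR and HTSeq, with no version; the genome build, the annotation and the handling of reads shared by several genes are not given in the sources used here. All 6 sample columns were used. Rows with 1 symbol were summed, and 7092 rows without a symbol were kept under their gene identifiers. Genes with a mean of at least 0.5 FPKM were kept. The log2(FPKM + 0.1) values were tested with limma 3.58.1 (moderated test with a mean trend) in R 4.3.3, with Benjamini-Hochberg adjustment over all 10942 genes. No count test was run. Fragments were read from the steps of the FPKM values, and 99.8% of 15979 rows gave whole numbers within 0.03. The limma script was tested on simulated data. P-values measure the spread between these samples, and a precision from the fragments would cover counting error only. Depth was unequal: about 42200000, 49800000 and 47900000 fragments in the sham and 36800000, 39500000 and 37200000 in the MI/RI libraries.

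Same-numbered libraries of the labels deviated from their group means together, with correlations across genes of 0.203, 0.117 and 0.118 (mean of other pairs -0.07), so the replicate number was fitted as a block in an alternative. The named members are the 8 with the largest and the 8 with the smallest log2 fold change, the 6 with the highest and 3 with the lowest mean, and a set of well-known ones; in each companion list, the 2 at either end. Members and lists were chosen with earlier results of these data known. Other scalings, filters, pseudocounts and left-out libraries were tried. Sequences came from the RefSeq promoter table. Some members are counted but not reported here by name.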

Additional observations from a re-analysis of the deposited data

How the results depend on the processing

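The number of ribosomal protein genes called higher, 8 as reported, was 19 with values rescaled to TPM, 4 with no filter on low genes, 2 when centred on the median gene, 0 (with 8 lower) rescaled without the mitochondrial mRNAs, 0 (with 23 lower) after quantile normalization and 1 at a threshold of 0.01. The share of all genes called higher was 25.5% as deposited, 31.5% with TPM, 11.4% with no filter and 18.5% centred. It was 7.25% (with 26.1% lower) without the mitochondrial mRNAs and 13.2% (with 14.2% lower) after quantile normalization. Leaving out 1 rat gave 1 to 16, with 16 without sham replicate 1, 2 without sham replicate 2, MI/RI replicate 2 or MI/RI replicate 3, and 1 without sham replicate 3. Of all genes, these fits called 23.4% higher without sham replicate 1, 17.5% without sham replicate 2 and 14.0% without sham replicate 3. Without MI/RI replicates 1, 2 and 3 in turn they called 18.9%, 20.7% and 21.5% higher. The cause of these changes was not tested. The median log2 fold change was 0.52 with TPM, 0.073 centred, -0.46 without the mitochondrial mRNAs and -0.68 after quantile normalization, and the difference in the members' share of FPKM outside the mitochondrial mRNAs turned from -3.04 to 0.812 percentage points when taken over all genes. Among named genes called on either scale, the log2 fold change turned, rescaled without the mitochondrial mRNAs, to -0.0069 in Eef1g, -0.13 in Rpl13, -0.062 in Rpl27, -0.032 in Rpl7a, -0.073 in Rplp0, -0.051 in Rps13 and -0.043 in Rpsa; it also changed sign in 15 named genes called on neither scale. After quantile normalization it turned to -0.31 in Eef1g, -0.76 in Fau, -0.086 in Hnrnpa1, -0.36 in Rpl13, -0.81 in Rpl19, -0.23 in Rpl27, -0.93 in Rpl32, -0.26 in Rpl7a, -0.31 in Rplp0, -0.63 in Rplp2, -0.26 in Rps13, -0.92 in Rps15, -0.00062 in Rps2 and -0.19 in Rpsa, and changed sign in 9 others called on neither scale. With the replicate block, 10 members were called, among them all 8, and 28.2% of all genes tested were called higher. Of the other named genes, the block changed the calls of Rack1 and Rpl7l1 alone. Of all genes called, 77.6% were higher as deposited, 87.3% with TPM, 91.9% with a filter at 5 FPKM, 56.5% centred, 48.0% after quantile normalization and 21.7% without the mitochondrial mRNAs. Rpl37, with as few as 52 fragments in a library, is the member with the fewest fragments behind its values. Why it was so low was not tested.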
